A study of Mus musculus with 4 samples.

Results

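The stem cell gate of mouse bone marrow was defined here by surface antibodies: CD117 and Sca1 high, CD150 high and CD48 low. A barcode entered it with antibody counts of at least 125 for CD117, at least 33 for Sca1, at least 14 for CD150 and below 378 for CD48. It also needed at least 500 genes, at least 1000 gene UMIs (unique molecular identifiers, 1 per captured RNA molecule), at most 10% mitochondrial UMIs, and fewer than 20 UMIs per 10000 from 6 B-lineage genes, Cd79a, Cd79b, Vpreb1, Vpreb3, Igll1 and Ebf1. Of 27166 barcodes kept in 4 libraries, 657 met the rule. The cells were bone marrow cells positive for Kit and for the CD45.2 allele, collected 10 weeks after transplantation, and gene RNA and 13 surface antibodies were counted in the same cells. Each group was 1 library: a control, the library labelled Mll3 deleted, the one labelled Mll4 deleted, and one labelled Mll3/4 deleted. The enzymes Mll3 (gene Kmt2c) and Mll4 (gene Kmt2d) methylate histone H3 at lysine 4. Strain, donor age, the driver of the deletion and the number of animals are not given in the sources used here.

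Haematopoietic stem cells renew themselves and give rise to all blood lineages. In mice they are enriched among CD117+ Sca1+ marrow cells by the presence of CD150, a SLAM family receptor, and the absence of CD48, which multipotent and lineage-restricted progenitors acquire. Hlf and Mecom are transcription factors of stem cell maintenance, and Procr encodes CD201, the endothelial protein C receptor. A fraction of stem cells also carries megakaryocyte and platelet RNA such as Vwf and Pf4.

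The kept barcodes numbered 7768 in control, 6341 in the library labelled Mll3 deleted, 5649 in Mll4 deleted and 7408 in Mll3/4 deleted. Depth differed: the median gate barcode held 12267.5 UMIs in control, 15067 in Mll3 deleted, 4709.5 in Mll4 deleted and 11331 in Mll3/4 deleted, and the gate sums were 3627536, 5488707, 440919 and 50800 UMIs. With 1 library a group, differences between libraries have no replicate check; every interval beside them is an exact 95% interval that covers counting error only. Libraries shared 9 to 24 barcode sequences pairwise, and 0 were in the gate of both libraries of a pair. Of the control gate sequences 1 also occurred in Mll4 deleted outside its gate. Of the Mll3 deleted gate sequences 2 occurred in Mll3/4 deleted outside its gate. The highest Scrublet doublet scores, at 0.8% per 1000 barcodes, fell on 16, 20, 4 and 0 gate barcodes, which were left in. Levels are CPM, that is, counts scaled to a common total of gene UMIs, summed over a gate.

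Kmt2c stood at 68.9 CPM in the control gate, 35.7 in Mll3 deleted and 70.3 in Mll4 deleted, and the 4 gate barcodes of Mll3/4 deleted held 3 counts. Kmt2d stood at 24.8, 24.2 and 22.7 CPM, with 2 counts in Mll3/4 deleted. Kmt2c was therefore lower in the library labelled Mll3 deleted (log2 ratio -0.93, interval -1.23 to -0.67), while Kmt2d was not lower in Mll4 deleted beyond counting error (-0.12, interval -1.24 to 0.82). Both were counted from 3′ tags, which check nothing about a deletion elsewhere in the gene, so directions below belong to the libraries as labelled.

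The gate held 256 control barcodes, 3.30% of those kept (interval 2.91 to 3.72). It held 317 in the library labelled Mll3 deleted, 5.0% (4.48 to 5.56), and 80 in Mll4 deleted, 1.42% (1.12 to 1.76). In Mll3/4 deleted it held 4, 0.0540% (0.0147 to 0.138). Against control the log2 ratio of the share was 0.60 (0.36 to 0.84) in Mll3 deleted, -1.22 (-1.60 to -0.85) in Mll4 deleted and -5.93 (-7.82 to -4.56) in Mll3/4 deleted. The intervals of all 4 shares were apart. These shares came from the values that define the gate and are descriptions, and the sort for Kit and the mix of other Kit-positive cells in each library enter the denominator.

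Within CD117+ Sca1+ barcodes without B-lineage RNA the libraries differed less. The stem cell gate took up 29.3% of 873 in control, 35.2% of 901 in Mll3 deleted, 22% of 364 in Mll4 deleted and 17.4% of 23 in Mll3/4 deleted, log2 ratios of 0.26 (0.021 to 0.51), -0.42 (-0.80 to -0.049) and -0.75 (-2.64 to 0.62); the last interval spans 0. The CD150- CD48- gate, which holds multipotent progenitors, held 1.29% of kept barcodes in control, 2.71% in Mll3 deleted, 1.26% in Mll4 deleted and 0.0405% in Mll3/4 deleted. The CD150+ CD48+ gate stood at 2.21, 2.41, 1.19 and 0.135%, and the CD150- CD48+ gate at 4.44, 4.08, 2.58 and 0.0810%. All 4 CD117+ Sca1+ gates, taken with the limit on B-lineage RNA, were thus nearly empty in Mll3/4 deleted. By antibodies alone they were not. The limit removed 2836 of the 2859 CD117+ Sca1+ barcodes of that library. It removed 32 of 905 in control, 24 of 925 in Mll3 deleted and 19 of 383 in Mll4 deleted.

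**Figure D1:**
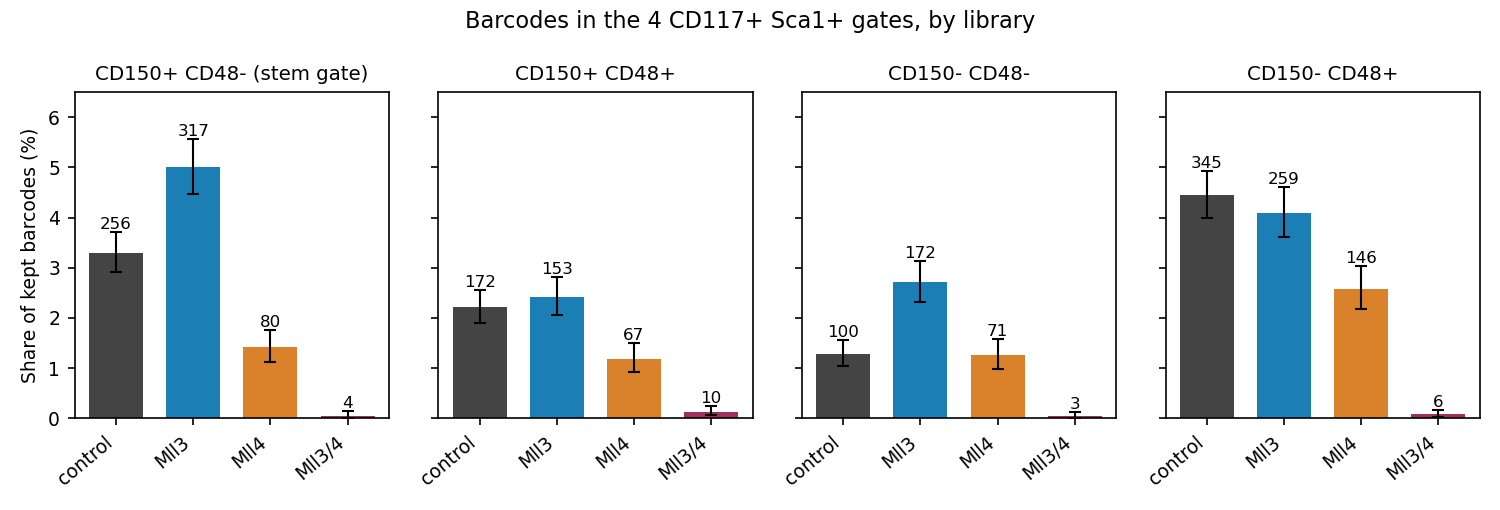
Bars show the share of kept barcodes (%) in each of the 4 CD117+ Sca1+ gates for each library, with exact 95% binomial intervals for counting error and the number of barcodes above each bar. The stem gate falls from 256, 317 and 80 barcodes in control, Mll3 deleted and Mll4 deleted to 4 in Mll3/4 deleted.

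The limit on B-lineage RNA shaped the count in Mll3/4 deleted. It removed 0 gate barcodes in control and Mll3 deleted, 1 in Mll4 deleted and 217 in Mll3/4 deleted. Without it, 221 barcodes of that library, 2.98%, had the antibody profile of the gate, a log2 ratio to control of -0.14 (-0.41 to 0.12), which spans 0. In the 217 removed barcodes Hlf, Mecom, Procr, Vwf, Gata2 and Cd34 had 0 counts. Instead they carried the early B and lymphoid genes Il7r at 771 CPM, Dntt at 743 CPM, Rag1 at 381 CPM, Pax5 at 381 CPM and Ighm at 840 CPM. Their median antibody counts were 17 for CD150, 3 above the minimum, 81 for CD127 (the interleukin-7 receptor chain) and 25 for B220.

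The 4 remaining barcodes of Mll3/4 deleted had 7359, 11028, 11634 and 20779 UMIs. They held Hlf at 4, 8, 8 and 0 counts, Mecom at 0, 2, 2 and 2 counts and Procr at 1, 1, 2 and 0 counts. Ifitm1, an interferon-induced membrane protein gene of stem cells, had 8, 49, 16 and 7 counts. Of the 30 genes of the stem cell list, 12, 13, 18 and 14 had a count. Mpo, Elane, Flt3, Dntt, Pax5 and Ighm had 0 counts in all 4. Rag1 had 0, 1, 0 and 1 counts and Il7r 0, 0, 0 and 1, so lymphoid RNA was not absent from every barcode. The first 3 thus carried Hlf and Procr, and the fourth, with the highest CD150 count of 219 and a CD41 count of 149, carried neither. Under 50 barcodes, this library enters no comparison of genes.

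Some barcodes lay close to the edges of the gate, on either side. Within 20% of the CD150 minimum lay 18, 19, 4 and 1 barcodes just inside and 5, 11, 5 and 0 just outside, with control first, then Mll3, Mll4 and Mll3/4 deleted. For CD48 these numbers were 25, 21, 0 and 0 inside and 20, 17, 6 and 2 outside. For Sca1 they were 14, 22, 3 and 0 inside and 9, 26, 6 and 1 outside, and for CD117 23, 13, 5 and 0 inside and 17, 4, 8 and 0 outside.

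The label of the gate was checked against Hlf, Mecom and Procr, since Ly6a and Slamf1 encode Sca1 and CD150 of the rule itself. After each barcode was thinned to 2000 UMIs, which left out 2, 1 and 3 shallower gate barcodes, Hlf was detected in 40.9% of control gate barcodes, 32.6% in Mll3 deleted and 44.2% in Mll4 deleted (81.6, 79.5 and 67.5% unthinned). Barcodes above the B-lineage limit, which should lack Hlf, gave 0.982, 0.606 and 2.22% at median depths of 4588.5, 4443 and 2337.5 UMIs. Mecom was detected in 18.5, 24.1 and 32.5% of thinned gate barcodes (70.7, 72.2 and 61.3% unthinned) against 0.196, 0.404 and 0%. Procr was detected in 7.48, 4.75 and 7.79% (33.6, 24.3 and 11.3% unthinned) against 0.393, 0.404 and 0%. All 3 genes were thus detected more often in the gate than in barcodes that should lack them. The check does not set the gate apart from its immature neighbours. Thinned in the same way, the median gate barcode held 9, 7 and 7 counts of the stem cell list. In CD150- CD48- barcodes the medians were 8.5, 6.5 and 6. In GRCm38, Hlf lies on chromosome 11 at 90336536 to 90390895, Mecom on chromosome 3 at 29951296 to 30548008 and Procr on chromosome 2 at 155751117 to 155755471, and counts are over the whole gene.

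A few gate barcodes carried RNA of late neutrophils, granulocytes marked by S100a8 and related genes. In 3 control, 16 Mll3 deleted and 9 Mll4 deleted barcodes the 8 late neutrophil genes made up over 5% of UMIs, from 13.8, 11.3 and 18.2% up to 37.8, 42.2 and 44.2%. The other gate barcodes reached at most 0.853, 0.900 and 1.04%, so none lay between. Their median CD11b counts, an antibody to a myeloid integrin, were 864, 226.5 and 1013 against 14, 7 and 6 in the rest. Scrublet's highest scores marked 2, 14 and 4 of them. Values without them are given where they differ; they were set apart after the data had been seen. Without them the log2 ratios of the gate share were 0.54 in Mll3 deleted and -1.37 in Mll4 deleted, and 1012 genes were higher and 1056 lower than in CD150+ CD48+ barcodes and 833 and 680 than in CD150- CD48+ barcodes, in the comparisons described next.

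Among antibodies that the rule did not use, CD41, the platelet integrin chain encoded by Itga2b, had gate medians of 46.5 counts in control, 17 in Mll3 deleted and 37.5 in Mll4 deleted. In the CD150- CD48- gate its medians were 8, 3 and 9, so the stem cell gate was higher in all 3 libraries. In the CD150+ CD48+ gate they were 33, 19 and 35, above the stem cell gate in Mll3 deleted. CD34, a sialomucin of progenitors, had gate medians of 18, 23 and 23 counts against 63, 92 and 49 in the CD150- CD48+ gate and 37.5, 49 and 23 in the CD150+ CD48+ gate, where Mll4 deleted was equal. CD201 medians were 8, 7 and 9 in the stem cell gate and 4, 4 and 5 in the CD150- CD48+ gate, but 11.5, 6 and 7 in the CD150- CD48- gate, higher than the stem cell gate in control. CD135, the Flt3 receptor, stayed at 2, 2 and 3 counts. Antibody counts are not scaled to depth, so they are compared between gates of 1 library only.

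The first comparison set the gate against CD150+ CD48+ barcodes, which share CD150 but have high CD48. They numbered 172 in control, 153 in Mll3 deleted and 67 in Mll4 deleted. The highest Scrublet scores fell on 45, 70 and 15 of them, against 16, 20 and 4 in the stem cell gate, and counts of genes without these barcodes follow below. Stem cell genes were higher in the gate, and myeloid, erythroid and mitosis genes were lower. Counts were summed per gate and library and tested over 3 libraries with the library as a block (edgeR quasi-likelihood test, Benjamini-Hochberg adjusted p under 0.05). The gates of 1 library come from the same marrow, and the spread over libraries includes their genotypes. Of 10780 genes, 1045 were higher in the gate (9.69%) and 1122 lower (10.4%), with a median log2 fold change of 0.01 over all genes.

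All 28 tested genes of the stem cell list were higher in the gate than in CD150+ CD48+ barcodes, with a median log2 fold change of 1.49. The count includes Ly6a and Slamf1, whose proteins the rule uses. Hlf stood at 257, 182 and 259 CPM in the gate and at 142, 57.5 and 39.8 CPM in the neighbour, in the order control, Mll3 deleted, Mll4 deleted. The fold change was 1.4 ± 0.91 on the log2 scale (SD over libraries, n = 3; edgeR adjusted p = 9.8e-07). Mecom stood at 100, 95.5 and 186 CPM against 40.2, 25.8 and 31.5 (1.70 ± 0.62, edgeR adjusted p = 2.1e-08). For both genes the lowest gate library was above the highest neighbour library. Tgm2, a transglutaminase, stood at 37.2, 20.8 and 29.5 CPM against 7.13, 1.59 and 4.97 (2.80 ± 0.45, edgeR adjusted p = 5.6e-08). Procr was at 38.6, 22.2 and 27.2 CPM against 13.7, 3.36 and 3.32, and the HoxA and HoxB list, patterning factors of immature cells, rose in 8 of 9 genes with a median of 1.03. The interferon response list rose in 8 of 13 genes with a median of 0.82.

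Of 15 myeloid genes 14 fell in the gate, with a median of -2.02. Mpo, the granule enzyme myeloperoxidase, stood at 96.2, 171 and 143 CPM in the gate and at 400, 1088 and 613 CPM in the neighbour (-2.36 ± 0.35, edgeR adjusted p = 3.1e-12). Of 14 erythroid genes 11 fell and 2 rose, with a median of -1.44. Klf1, the erythroid master factor, was at 11.0, 15.9 and 6.80 CPM against 45.3, 81.9 and 61.3, while the globin gene Hbb-bt was higher at 66.4, 76.9 and 186 against 19.9, 20.9 and 8.29. All 4 tested basophil and mast cell genes fell with a median of -3.25, among them the protease gene Cpa3 at 7.17, 1.28 and 4.54 CPM against 51.2, 10.8 and 187. Of the 20 genes of G2 and M phase 19 fell, by a smaller median of -0.55. Mki67, a marker of cycling cells, was at 365, 530 and 395 CPM against 547, 581 and 642 (-0.48 ± 0.30, edgeR adjusted p = 0.0014), so gate cells still held much of its RNA.

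Megakaryocyte RNA did not separate these CD150+ gates as a group. Of 11 tested genes 4 were higher, among them Gp9, Selp and Vwf, and none fell. Pf4, platelet factor 4, stood at 313, 614 and 320 CPM in the gate and at 480, 228 and 217 CPM in CD150+ CD48+ barcodes. It was lower in the control gate and higher in the others (0.41 ± 1.02, edgeR adjusted p = 0.18), and without Mll3 deleted the fold change was -0.22 and without control 1.05 (edgeR adjusted p = 0.0022). Of the 4 genes, Vwf, Selp and Gp9 lost the call without Mll3 deleted and Gp9 also without control. Among all genes, those with the largest rise included Ndn, the growth suppressor necdin (log2 fold change 3.11), the lectin gene Clec1a of the stem cell list (2.69) and Nbea, a vesicle trafficking protein gene, at 13.5, 13.1 and 13.6 CPM against 2.55, 1.77 and 1.66. The largest fall was that of Mcpt8, a basophil protease gene (-3.76).

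Without control the counts over all genes became 410 higher and 466 lower, without Mll3 deleted 310 and 364, and without Mll4 deleted 1269 and 1355. Those without the highest Scrublet scores were 664 and 695. The stem cell list had 23 to 29 higher calls in these 4 fits, and the G2 and M phase list 7 lower calls without control and 16 to 20 in the others. The HoxA and HoxB list had 2 higher calls without control and 2 without Mll3 deleted, and the interferon response list 4 without control. Mki67 lost its call without control (edgeR adjusted p = 0.110), as did Mcpt8 (0.052), and Ndn lost it without Mll3 deleted (0.099).

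The second neighbour, CD150- CD48- barcodes, differs from the gate in the rule by CD150 only. Their CD48 counts, though below the maximum, were also higher, with medians of 227, 188.5 and 79 against 93.5, 77 and 43 in the gate, and their Sca1 counts lower, at 120.5, 130 and 82 against 160, 172 and 198.5. There were 100 such barcodes in control, 172 in Mll3 deleted and 71 in Mll4 deleted. The gate was higher in megakaryocyte and platelet genes and lower in lymphoid and myeloid genes, while Hlf was lower in it and Mecom did not pass the test. Of 9684 genes 201 were higher in the gate (2.08%) and 295 lower (3.05%), with a median of 0.00.

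Of 9 tested megakaryocyte genes 7 were higher, with a median of 2.20. Pf4 stood at 313, 614 and 320 CPM in the gate and at 25.1, 22.2 and 33.5 CPM in CD150- CD48- barcodes (4.22 ± 0.79, edgeR adjusted p = 2.3e-08). Vwf, the gene of von Willebrand factor, stood at 21, 47.2 and 29.5 CPM against 0.837, 1.71 and 0. In these sums each gate library was well above all 3 neighbour libraries. The 10 richest barcodes held 43.3, 47.0 and 69.2% of the gate's megakaryocyte list counts. After thinning, the median barcode held 1, 1 and 0 list counts in the gate and 1, 0 and 0 in the neighbour. None were held by 39.0, 49.4 and 51.9% of gate barcodes against 49, 61.0 and 57.4%. The sums are thus weighted to a minority of barcodes. Pf4 also differed between hashtags, as given below. Itga2b, the gene of CD41, was at 60.1, 55.2 and 81.6 CPM against 10.9, 7.25 and 13.9 (2.67 ± 0.21, edgeR adjusted p = 2.7e-06), in the same direction as the CD41 antibody. Cavin2, a caveolar coat protein gene that leads the genes outside the lists, stood at 48, 85.6 and 49.9 CPM against 0, 0 and 8.37. Nupr1, a stress-response gene, was at 173, 97.7 and 95.3 CPM against 26.0, 5.54 and 11.2.

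The stem cell list was divided in this comparison: 15 of 27 tested genes rose, 2 fell and the median was 0.80. The 15 include Slamf1, the gene of CD150, by which these gates were separated. Hlf stood at 257, 182 and 259 CPM in the gate and at 413, 310 and 237 CPM in CD150- CD48- barcodes, lower in 2 of 3 libraries (-0.62 ± 0.49, edgeR adjusted p = 0.0055). The call was lost with DESeq2 (adjusted p = 0.144), without control (edgeR adjusted p = 0.13) and without Mll3 deleted (edgeR adjusted p = 0.16). Mecom stood at 100, 95.5 and 186 CPM against 112, 93.4 and 184 (-0.08 ± 0.11, edgeR adjusted p = 0.79), a near-equal level in each library. Mllt3, a transcription elongation factor gene, was higher at 96.8, 95.8 and 83.9 against 50.2, 57.5 and 19.5. Ly6a, the gene of the gate's Sca1, was the other list gene below its neighbour.

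Of 7 lymphoid priming genes 6 fell, with a median of -1.91. Flt3, a cytokine receptor of multipotent and lymphoid progenitors, stood at 7.44, 4.01 and 9.07 CPM in the gate and at 80.4, 62.2 and 30.7 CPM in CD150- CD48- barcodes (-3.60 ± 1.06, edgeR adjusted p = 5.9e-07). Dntt, the terminal transferase of antigen receptor genes, was at 0.827, 0.911 and 2.27 CPM against 9.21, 15.3 and 64.1. Gate and neighbour did not overlap for either gene. Tespa1, a signalling gene of lymphoid cells, was at 13.5, 3.83 and 6.80 CPM against 72.0, 35.0 and 13.9. Of 10 myeloid genes 8 fell with a median of -0.99. None of the 20 genes of G2 and M phase passed the test (median 0.18); without the barcodes rich in late neutrophil RNA 11 did, all higher in the gate, and the counts over all genes were then 350 and 412.

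Leaving out control gave 91 higher and 154 lower genes in this comparison, leaving out Mll3 deleted 51 and 117, and leaving out Mll4 deleted 362 and 442. The megakaryocyte list had 3 higher calls without Mll3 deleted and 6 and 9 in the other fits, and the lymphoid list 4 to 6 lower calls. The stem cell list had 9 higher calls without Mll3 deleted, and the myeloid list 4 lower calls without control.

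The third neighbour, CD150- CD48+ barcodes, lacks CD150 and has CD48. It was the largest of the 3, with 345 barcodes in control, 259 in Mll3 deleted and 146 in Mll4 deleted. In it both differences appeared together: the gate was higher in stem cell and megakaryocyte genes and lower in lymphoid and myeloid genes. Of 11188 genes 838 were higher in the gate (7.49%) and 706 lower (6.31%), with a median of 0.00.

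Of the 30 stem cell genes 28 rose, Ly6a and Slamf1 of the rule among them, and none fell, with a median of 2.02. Mecom was at 100, 95.5 and 186 CPM in the gate and at 44.0, 41.1 and 63.4 CPM in CD150- CD48+ barcodes (1.22 ± 0.21, edgeR adjusted p = 9.7e-07). Hlf was higher by less, at 257, 182 and 259 CPM against 205, 122 and 104 (0.57 ± 0.51, edgeR adjusted p = 0.0057). Of 10 megakaryocyte genes 8 rose with a median of 2.81, among them Pf4 against 8.47, 6.71 and 4.61 CPM (5.83 ± 0.64, edgeR adjusted p = 2.9e-11).

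All 8 tested lymphoid priming genes fell, with a median of -3.04, and all 15 myeloid genes, with a median of -1.61. Dntt stood at 0.827, 0.911 and 2.27 CPM in the gate and at 66.2, 86.4 and 143 CPM in CD150- CD48+ barcodes (-6.41 ± 0.17, edgeR adjusted p = 3.3e-11). Satb1, a chromatin organiser of lymphoid cells, was at 3.31, 3.46 and 9.07 CPM against 65.2, 67.1 and 70.3 (-4.19 ± 0.64, edgeR adjusted p = 7.8e-10). Irf8, a factor of monocytes and dendritic cells, was at 5.51, 4.55 and 4.54 CPM against 30.2, 48.2 and 100. The gate was the lower set in every library for these 3 genes. Arpp21 had 0 counts in the gate of all 3 libraries, and among genes outside the lists Ncam2, a neural cell adhesion molecule gene, had 0 counts in the CD150- CD48+ gate of all 3. Of 20 genes of G2 and M phase 3 fell. Mki67 was at 365, 530 and 395 CPM against 427, 429 and 533 (-0.11 ± 0.38, edgeR adjusted p = 0.60). Without control 327 genes were higher and 257 lower, without Mll3 deleted 349 and 300, and without Mll4 deleted 1254 and 1139, and the fold change of Mki67 was then 0.012. The 3 lower G2 and M phase calls became 0 without control, 2 without Mll3 deleted and 5 without Mll4 deleted.

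**Figure D2:**
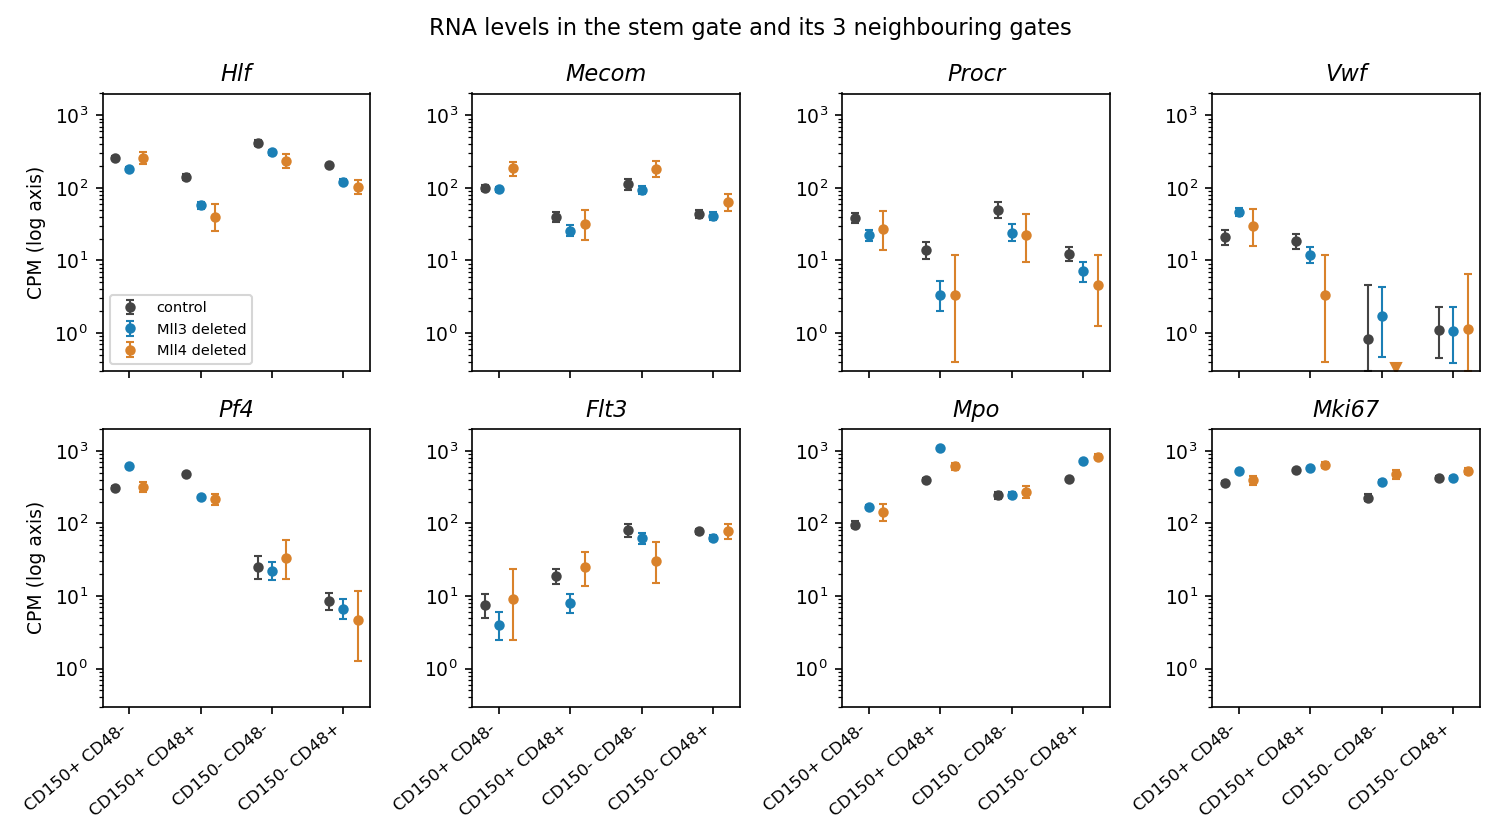
Points show CPM on a log axis for 8 genes in the stem gate (CD150+ CD48-) and its 3 neighbours, for 3 libraries, with exact 95% Poisson intervals for counting error; a triangle marks 0 counts. Pf4 is higher in both CD150+ gates than in both CD150- gates of every library, whereas Hlf is higher in the CD150- CD48- gate than in the stem gate of control and Mll3 deleted (413 and 310 against 257 and 182 CPM).

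**Figure D3:**
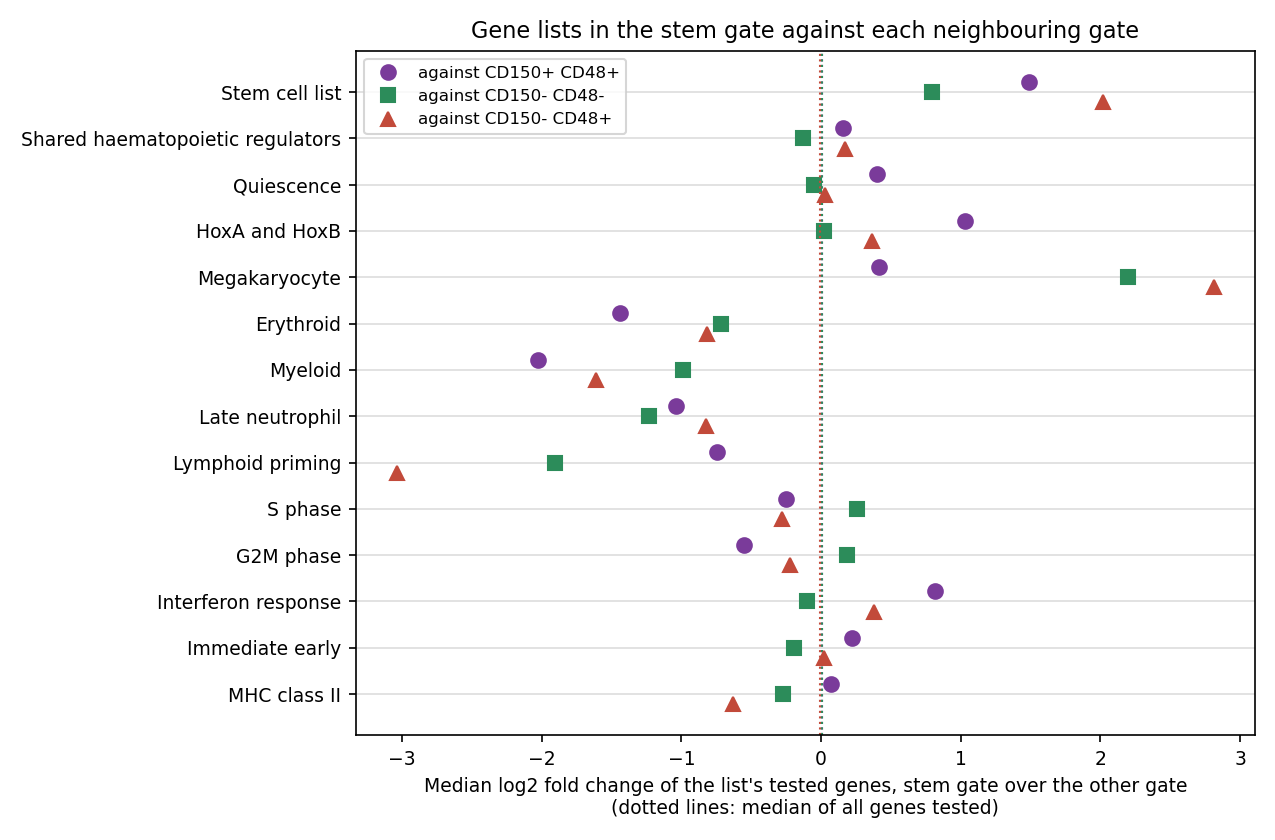
Each symbol is the median log2 fold change of the tested genes of 1 list, stem gate over CD150+ CD48+ (circles), CD150- CD48- (squares) or CD150- CD48+ (triangles), and dotted lines give the median of all genes. The stem cell list lies at 1.49, 0.80 and 2.02, the myeloid list at -2.02, -0.99 and -1.61 and the megakaryocyte list at 0.41, 2.20 and 2.81.

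CD201 was not part of the rule, and gate barcodes ranged widely for it, so each library was split by its CD201 antibody count; this comparison was added after levels in the gate had been seen. The lowest tertile held 85, 105 and 26 barcodes with at most 4 counts, and the highest tertile 86, 106 and 27 barcodes with at least 16, 12 and 14 counts. At these borders lay 18, 37 and 9 and 3, 9 and 4 barcodes, so the tertiles are ranges and not types. The highest tertile carried more Hlf, Mecom and Ifitm1, and the lowest more platelet and mitosis genes. Of 8832 genes 325 were higher in the highest tertile (3.68%) and 337 lower (3.82%), with a median of 0.01. Median Sca1 antibody counts were 397.5, 396.5 and 265 in the highest tertile and 73, 92 and 136.5 in the lowest, and median depths were 10984.5, 12618 and 4531 UMIs against 15226, 17464 and 6450. The part of Sca1 level and depth in the comparison was not tested.

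Procr RNA, the gene of CD201 itself, stood at 86.1, 65.7 and 56.5 CPM in the highest tertile and at 8.30, 2.42 and 0 CPM in the lowest, which is a description of the split. Hlf stood at 401, 319 and 282 CPM against 131, 98.6 and 150 (1.60 ± 0.43, edgeR adjusted p = 2.1e-07). Mecom stood at 142, 146 and 183 CPM against 69.9, 65.8 and 144 (1.04 ± 0.43, edgeR adjusted p = 8.8e-05), and its call was lost without control (edgeR adjusted p = 0.053) and without Mll3 deleted (edgeR adjusted p = 0.070). Both genes were higher in every library. Ifitm1 was at 1311, 982 and 148 CPM against 322, 183 and 116 (2.06 ± 1.09, edgeR adjusted p = 1.4e-06), with the smallest gap in Mll4 deleted. Of 27 stem cell genes 12 rose, Procr itself and Ly6a among them, and 2 fell, among the latter Vwf (-0.87 ± 0.44, edgeR adjusted p = 0.032; lost without control or without Mll3 deleted). The 12 became 7 without control and 6 without Mll3 deleted.

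Of 10 tested megakaryocyte genes 8 fell and none rose in the highest CD201 tertile, with a median of -1.92. Pf4 stood at 70.0, 108 and 42.3 CPM in it and at 503, 893 and 716 CPM in the lowest tertile (-3.03 ± 0.65, edgeR adjusted p = 3.1e-10). Itga2b was at 11.3, 21 and 0 CPM against 96.9, 63.3 and 185. No library overlapped between the tertiles for these 2 genes. Of 20 genes of G2 and M phase 19 fell, with a median of -1.11. Mki67 was at 185, 261 and 367 CPM against 528, 649 and 497 (-1.16 ± 0.57, edgeR adjusted p = 9.4e-05), and the gap was smallest in Mll4 deleted.

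Erythroid genes went the other way from platelet genes, 5 of 10 higher and 1 lower in the highest CD201 tertile with a median of 1.23. Car1, carbonic anhydrase 1 of early erythroid cells, was at 541, 344 and 226 CPM against 20.1, 134 and 5.78 (2.68 ± 2.04, edgeR adjusted p = 9.9e-05), whereas Gata1, the factor shared by erythroid cells and megakaryocytes, fell (-1.48, edgeR adjusted p = 0.0026), a call lost without control or without Mll3 deleted. Ltb, the lymphotoxin beta gene, was at 166, 92.6 and 35.3 CPM against 29.1, 14.5 and 0, and Myof, a membrane repair gene, at 43.5, 20.4 and 28.2 CPM against 4.15, 1.45 and 0. Plek, a platelet kinase substrate gene, was among the largest falls (-2.36). Without the barcodes rich in late neutrophil RNA 581 genes were higher and 636 lower, without the highest Scrublet scores 574 and 547. Without control 64 and 34 were past the threshold, without Mll3 deleted 80 and 72, and without Mll4 deleted 747 and 756. The G2 and M phase list had 3 lower calls without control and 12 without Mll3 deleted, the megakaryocyte list 3 and 4, and the erythroid list 1 and 3 higher calls.

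**Figure D4:**
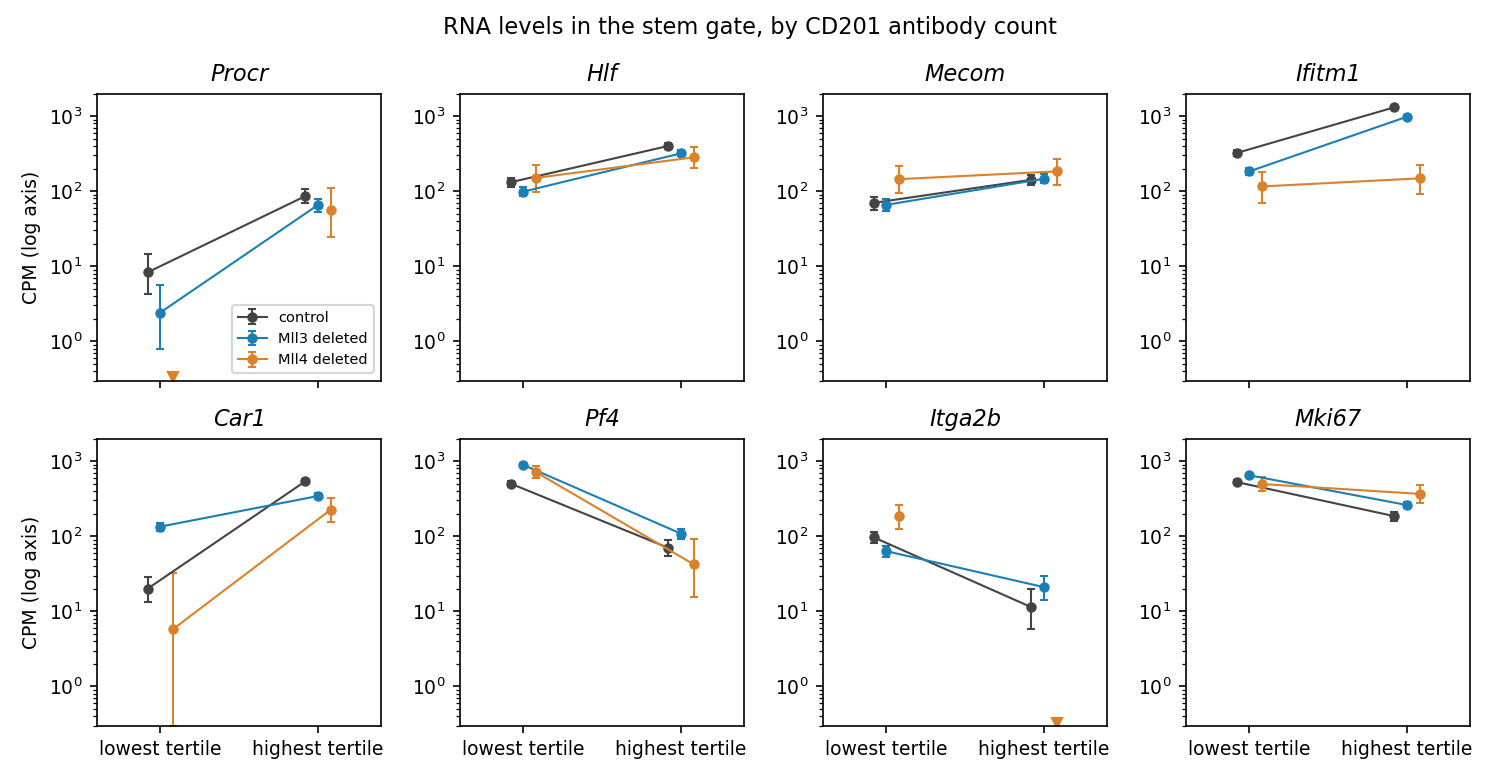
Points show CPM on a log axis for 8 genes in the lowest and highest CD201 tertile of the stem gate, joined within each of 3 libraries, with exact 95% Poisson intervals for counting error; a triangle marks 0 counts. Procr, Hlf and Car1 are higher in the highest tertile of every library, and Pf4 and Itga2b lower.

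The next question was how gate cells of each deleted library compared with those of the control library. These comparisons share the control, have 1 library on each side and carry no test; a gene was counted as different at a 2-fold ratio of CPM plus a pseudocount of 1, among genes with at least 20 counts in either library. In sums over a gate, fewer cells with an RNA and less RNA per cell cannot be told apart. Values per barcode are therefore added for Mki67 and the megakaryocyte list in Mll3 deleted.

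Summed over the gate, the library labelled Mll3 deleted held more cell cycle RNA, more Pf4 and Vwf and somewhat less Hlf and Procr than control. The higher Pf4 and Vwf lay mainly with the second hashtag, and the median barcode held less RNA of the megakaryocyte list, as given below. Of 10388 genes 132 were at least 2-fold higher (1.27%) and 169 at least 2-fold lower (1.63%), with a median log2 ratio of -0.05. Without the highest Scrublet scores these became 86 and 173, and without the barcodes rich in late neutrophil RNA 93 and 190.

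Hlf was at 182 CPM in the Mll3 deleted gate and 257 in the control gate (log2 ratio -0.49, interval -0.62 to -0.36). Procr was at 22.2 and 38.6 CPM (-0.77, interval -1.16 to -0.44), and Mecom at 95.5 and 100 CPM. Of 29 stem cell genes 6 had a ratio above 0 (41.5% of all genes did), 12 had an interval below 0 (15.3% of all genes) and 3 an interval above it (8.31%), with a median of -0.15. Among the 3 was Vwf, at 47.2 against 21 CPM (1.13, interval 0.80 to 1.56). In the other CD117+ Sca1+ barcodes Vwf had a ratio of -0.28. Pf4 was at 614 against 313 CPM in the gate (0.97, interval 0.88 to 1.07), with a ratio of -0.77 in the other CD117+ Sca1+ barcodes. Over the 10 tested genes of the megakaryocyte list 3 had an interval above control and 2 below, with a median of 0.11. Per barcode the list took a median of 0.0320% of UMIs against 0.0417% in control, and after thinning 49.4% of barcodes had none of its RNA against 39.0% in control, while 7.59% against 4.72% had at least 5 counts.

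Of 20 genes of G2 and M phase 18 had a ratio above 0 in the Mll3 deleted gate and 13 an interval above 0, with a median of 0.30. Mki67 was at 530 CPM against 365 (0.54, interval 0.45 to 0.64), and outside the gate its ratio was 0.00. After thinning to 2000 UMIs, 33.5% of Mll3 deleted gate barcodes held a count of Mki67 against 18.9% in control (59.0 and 36.3% unthinned). Of 20 S phase genes 19 had a ratio above 0, with a median of 0.23. The level was thus higher both per UMI and per barcode. Of 9 HoxA and HoxB genes 2 had an interval below control, with a median of -0.17 against -0.18 in the other CD117+ Sca1+ barcodes. Below control were 12 of 13 interferon response genes with a median of -0.27, where 41.5% of all genes had a ratio above 0. Only 6 of the 13 had an interval below control (15.3% of all genes did). After thinning to 2000 UMIs per barcode only 5 of these genes had enough counts, and their median was 0.27. Of 15 shared regulators of blood cells 11 had an interval below control, with a median of -0.25, among them Myb (-0.53), a factor of progenitor growth.

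Myeloid RNA was also higher in the Mll3 deleted gate (median 0.68), and this moved with the barcodes rich in late neutrophil RNA. Without them the myeloid median was 0.30, and the late neutrophil median went from 1.27 to -0.34. Elane, a neutrophil granule protease gene, was at 212 CPM against 68.6 in control, but at 88.6 and 65.5 CPM in the Mll3 deleted gate barcodes that carried only the first or only the second hashtag.

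Among genes named by size, Cdkn1a, the cell cycle inhibitor p21, had 98 counts in the Mll3 deleted gate and 7 in control (2.69, interval 2.11 to 4.56), spread over 28 barcodes, the highest of which held 27.6% of the counts. Its ratio was -0.09 in the other CD117+ Sca1+ barcodes. Xlr had 51 counts against 0, in 20 barcodes that all carried the first hashtag. Its level was 11.2-fold above that of 3 counts in control, and the interval of the log2 ratio began at 3.14. Hist1h2ap, a replication-dependent histone gene, was at 703 against 136 CPM (2.36), and also higher outside the gate (1.63). Clu, the secreted chaperone clusterin, had a ratio of 2.0. Olfm4, Orm1 and Lcn2 were on this list as well, but Olfm4 had 64.0% of its counts in 1 barcode, and without the barcodes rich in late neutrophil RNA the ratios of Orm1 and Lcn2 were -0.17 and -0.40. The lowest were Nefh, a neurofilament gene, at 2.55 against 30.3 CPM (-3.14, with -3.92 outside the gate), Tjp1, a tight junction gene, at 5.10 against 44.9 CPM, and Mmrn1, multimerin of platelets, at 7.29 against 54.6 CPM.

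Gate cells of the library labelled Mll4 deleted held Hlf near the control level, more Mecom, DNA replication and MHC class II RNA and far less Ifitm1. Of 9733 genes 608 were at least 2-fold higher (6.25%) and 772 at least 2-fold lower (7.93%), with a median of 0.05. The counting interval excluded a log2 ratio of 0 for 525 of the 608 and for only 285 of the 772. In Mll3 deleted it did so for all 132 higher and all 169 lower genes. At 440919 UMIs in 80 barcodes, 3 counts correspond to 6.80 CPM, the level that a count of 0 still allows.

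Hlf was at 259 CPM in the Mll4 deleted gate and 257 in control (0.01, interval -0.28 to 0.29). Mecom was at 186 against 100 CPM (0.89, interval 0.53 to 1.24). Ifitm1 was at 132 against 743 CPM (-2.49, interval -2.90 to -2.12), and its ratio was -1.77 in the other CD117+ Sca1+ barcodes and -1.26 outside the gate. Of 29 stem cell genes 12 had a ratio above 0 (53.2% of all genes did) and 4 were at least 2-fold lower, with a median of -0.21, which was the same with Tek, at 0 counts, set at its limit of 3 counts. Tcf15, a factor of dormant stem cells, was among the lower ones (-1.30, interval -2.69 to -0.27). Of 9 HoxA and HoxB genes 1 had an interval below control and 2 were at least 2-fold lower, with a median of -0.66, equal to the -0.66 outside the gate.

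Of 20 S phase genes 18 had a ratio above 0, 13 an interval above 0 (12.7% of all genes; 8.02% had one below) and 7 were at least 2-fold higher in the Mll4 deleted gate, with a median of 0.57 against 0.24 in the other CD117+ Sca1+ barcodes. Mcm5, a subunit of the replicative helicase, was at 234 against 93.2 CPM (1.32, interval 0.99 to 1.65), and Rrm2, of ribonucleotide reductase, at 122 against 41.9 CPM (1.53, interval 1.07 to 2.0). The G2 and M phase list did not follow, with 11 of 20 genes above 0 and a median of 0.08. MHC class II genes were higher in 4 of 5 by 2-fold with a median of 2.32: H2-Eb1 was at 256 against 28.1 CPM and H2-Ab1 at 288 against 55.4 CPM. This median was 4.08 in the other CD117+ Sca1+ barcodes and 2.80 outside the gate, so the gate was not the place of the largest ratio.

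Neutrophil genes headed the genes named by size in the Mll4 deleted gate, and they too moved with the barcodes rich in late neutrophil RNA. The late neutrophil median was 3.21 with these 9 barcodes and 1.72 without them; S100a8 was at 15781 CPM with them and 1156 without, against 1505 and 355 in control. Cybb, an oxidase subunit gene, had a ratio of 4.10 with them and 1.49 without, whereas H2-Eb1 had 3.14 and 3.29. Outside the gate the late neutrophil median was 1.42. Apoe, the apolipoprotein E gene, was the lowest with enough counts, at 29.5 against 713 CPM (-4.55, interval -5.51 to -3.82), and its ratio outside the gate was -2.26. Lgals1, a galectin gene, had 1 count against 262 (-4.49, interval -10.30 to -2.50). Serpinf1 and Hist1h2bl had 0 counts against 81 each in control. Set at the limit of 3 counts, each was 3.28-fold lower, and the interval of the log2 ratio ended at -1.38.

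**Figure D5:**
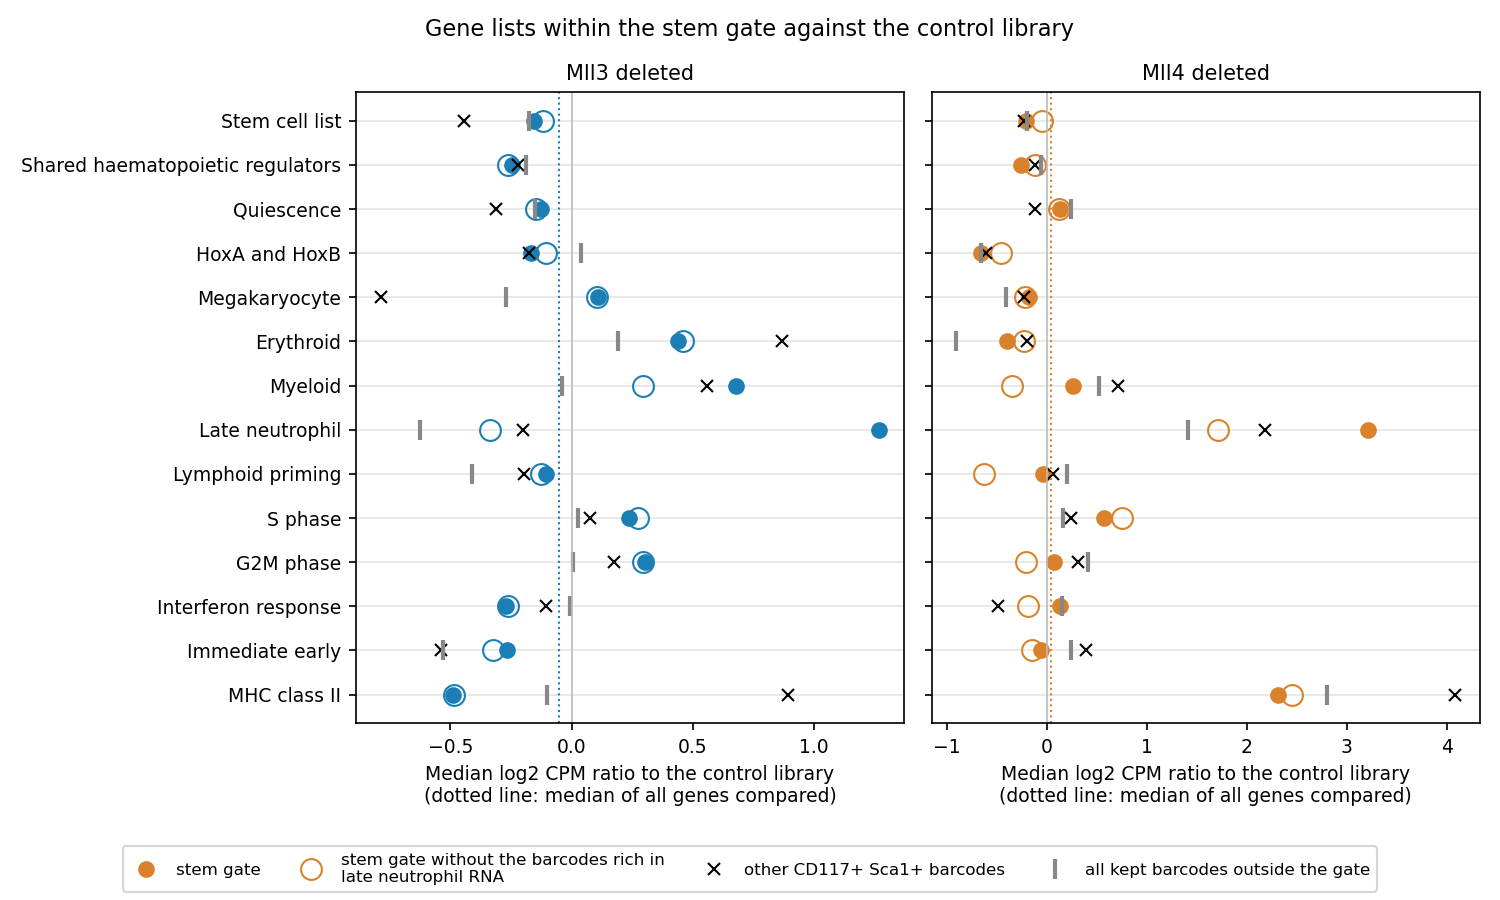
Filled circles give the median log2 CPM ratio to control of each list in the stem gate for the libraries labelled Mll3 deleted and Mll4 deleted, open circles the same without the barcodes rich in late neutrophil RNA, crosses the other CD117+ Sca1+ barcodes and grey bars all kept barcodes outside the gate; dotted lines are the median of all genes. The late neutrophil list moves from 1.27 to -0.34 and from 3.21 to 1.72 without those barcodes, while the S phase list stays above the dotted line in both libraries.

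Each library held barcodes of 2 hashtags, antibody tags whose meaning the labels do not give. The first and second marked 144 and 109 gate barcodes in control, 175 and 126 in Mll3 deleted, 36 and 39 in Mll4 deleted and 0 and 4 in Mll3/4 deleted, and 3, 16, 5 and 0 carried both. Hlf stood at 229 and 302 CPM in control, 199 and 166 in Mll3 deleted and 299 and 257 in Mll4 deleted. Its gap between the control hashtags was wider than that between the first hashtags of control and Mll3 deleted. Pf4 differed more between hashtags in the libraries labelled Mll3 deleted and Mll4 deleted. It stood at 340 and 295 CPM in control, 367 and 985 in Mll3 deleted, and 23.0 and 623 in Mll4 deleted. Vwf stood at 22 and 19.4, 28.1 and 77.7, and 23.0 and 41.3 CPM. The higher Pf4 and Vwf of the Mll3 deleted gate were thus found with the second hashtag, while barcodes of the first were near control. Mki67, at 526 and 528 CPM in Mll3 deleted against 434 and 277 in control, and Ifitm1, at 219 and 91.7 CPM in Mll4 deleted against 627 and 893, kept their direction with both hashtags. For Mki67 the gap between the 2 control hashtags was wider than that between the first hashtags of control and Mll3 deleted. H2-Ab1 stood at 150 and 413 CPM in Mll4 deleted against 58.5 and 53.8 in control.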

How the data were processed

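Deposited matrices held UMI counts of 32285 genes, 13 surface antibodies and 2 hashtags per barcode, which the authors made with Cell Ranger 6.1.2 on mm10, per the submitters' processing notes; settings for calling cells are not given in the sources used here. Of the gene IDs, 32158 matched GENCODE M21 on GRCm38, used for positions. No column of per-sample values was left unused (0).

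The gate rule was applied to raw counts. The members, lists and tests were chosen with earlier results of these data known; the CD201 split and the alternative without barcodes rich in late neutrophil RNA were added after seeing the data. Counts were summed per gate and library. Gates were compared over the 3 libraries with at least 50 barcodes in each gate with edgeR 4.0.16 in R 4.3.3 (filterByExpr, TMM, quasi-likelihood test, library as a block, adjusted p under 0.05 by Benjamini-Hochberg over all genes tested). The block pairs gates of the same library, that is, of the same marrow cells. Libraries were compared with control by log2 CPM ratios with a pseudocount of 1 and exact 95% intervals, without a test. Shares with a count were taken after thinning to 2000 UMIs. Counts were not corrected for free RNA, and doublets were scored with Scrublet in scanpy 1.11.5 (Python 3.11.15) and left in, with their removal as an alternative. DESeq2 1.42.0, other filters, leaving out each library and other gate limits were the other alternatives. No animals or cultures are named within a library, so p-values measure the spread between libraries.

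Named genes were all list genes plus, per comparison, the 10 with the largest change in each direction: in gate comparisons those with adjusted p under 0.05 and the same direction in every library, against control those with at least 50 counts whose counting interval excludes 1, without Xist, Tsix, Y-linked and mitochondrial genes. The gate's own antibody genes and the 6 B-lineage genes were read as descriptions. On simulated counts with 200 changed genes, the tests against CD150+ CD48+ (10525 genes), CD150- CD48- (9591) and CD150- CD48+ (11028) and between CD201 tertiles (8588) recovered 78.9, 75, 81.1 and 57.4% of 2-fold and 96.8, 98.9, 98.9 and 98.9% of 4-fold changes, with 7, 11, 4 and 5 false calls. The simulation gave every gene the same fixed spread and no differences between libraries except depth. It therefore does not measure recovery or false calls at the spread between the real libraries. A few list genes are counted in their lists but not reported here by name.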

Additional observations from a re-analysis of the deposited data

How the results depend on the processing

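Of the results that answer a comparison, 394 values recomputed under alternatives stayed within the limits set for them, 84 moved and 2 changed sign; of the single genes and lists, 824 stayed, 173 moved, 48 lost and 3 gained a call and 2 changed sign. The share in the gate kept its sign in every alternative, but in Mll3/4 deleted its interval spanned 0 with no B-lineage limit (-0.14, -0.41 to 0.12) and as a share of CD117+ Sca1+ barcodes (-0.75, -2.64 to 0.62); the latter gave 0.26 and -0.42 in Mll3 and Mll4 deleted.

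Without the replicate block, that is, with the pairing of gates by library ignored, far fewer genes passed. The counts of higher and lower genes were 22 and 21 against CD150+ CD48+ and 7 and 3 against CD150- CD48-. They were 160 and 67 against CD150- CD48+ and 31 and 19 between CD201 tertiles. The libraries differ in depth and label. Of the single genes, Hlf, Procr and Mki67 against CD150+ CD48+ and Mecom between CD201 tertiles were among those that lost their call. With DESeq2 the counts were 272 and 314, 46 and 72, 309 and 238, and 37 and 33. Leaving out 1 library gave 310 to 1269 higher and 364 to 1355 lower, 51 to 362 and 117 to 442, 327 to 1254 and 257 to 1139, and 64 to 747 and 34 to 756. The fold change of Pf4 against CD150+ CD48+ then ranged from -0.22 to 1.05 and that of Mki67 against CD150- CD48+ from -0.35 to 0.012. Without the highest Scrublet scores the counts were 664 and 695 against CD150+ CD48+ and 574 and 547 between tertiles; without barcodes rich in late neutrophil RNA 350 were higher than in CD150- CD48-, and 581 and 636 differed between tertiles; with no filter on low counts 370 were higher than in CD150- CD48-. The cause of these moves was not tested.

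Against control, the Mll3 deleted gate had 86 genes 2-fold higher without the highest Scrublet scores, 38 higher and 57 lower with a pseudocount of 5 CPM, and 33 and 37 with a minimum of 100 counts, which leaves fewer genes. The Mll4 deleted gate had 157 and 360 after thinning, 366 and 423 with the pseudocount of 5 and 167 and 196 with the minimum of 100. In Mll3 deleted the myeloid median was 0.32 with the CD150 minimum doubled, 0.39 with the CD48 maximum halved, 0.42 without the highest Scrublet scores, 0.22 without barcodes of both hashtags and 0.30 without those rich in late neutrophil RNA. In the same order its late neutrophil median was 0.60, 2.17, 0.48, 1.44 and -0.34, and it was 1.41 as a mean of shares per barcode and 1.54 thinned. The S phase median was 0.49 with CD48 halved, and the erythroid median -0.032 without the highest Scrublet scores against 0.44. Thinned, the shared regulators stood at -0.042, G2 and M phase at 0.55 and interferon response, with 5 genes left, at 0.27. In Mll4 deleted the late neutrophil median was 2.29 with CD150 doubled, 4.74 with CD48 halved, 3.97 with rescaled antibody counts, 3.52 without the highest Scrublet scores, 3.73 without both hashtags, 3.44 as a mean of shares, 3.51 thinned and 1.72 without the barcodes rich in it. MHC class II was 1.97 as a mean of shares and 1.89 thinned.

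Depth limits the Mll4 deleted gate: a gene with 0 counts there may stand at up to 6.80 CPM (3 counts). The 4 gate barcodes of Mll3/4 deleted allow no comparison of genes, and the 1 library per group leaves marrow, depth and label not told apart.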
